A study of Drosophila melanogaster with 4 samples.

Results

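The enriched regions of RNA polymerase II on the X chromosome were examined in chromatin immunoprecipitation followed by sequencing (ChIP-seq). The material was head nuclei of adult Drosophila melanogaster. All flies were wild type, of the laboratory strain Oregon-R-modENCODE, and the labels give their stage as Mixed Adult without stating sex. There were 2 ChIP libraries made with an Abcam antibody to RNA polymerase II, and 2 input libraries of unprecipitated chromatin, 1 for each ChIP library. The authors deposited a list of regions for each ChIP replicate and a list for the replicate set, which by its name combines them. Members were the rows of the replicate set list that lie on the assembled X arm and are called enriched. They numbered 1278 of 6761 enriched regions, or 18.9%, and X held 0 depleted regions in all 3 lists. The same arm held 1133 of 6168 regions in replicate 1 and 1146 of 6219 in replicate 2. The regions on 2L, 3L and 3R, 3991 in the replicate set list, served for comparison. Positions are those of FlyBase release 5, and the separate scaffold of X heterochromatin is not included.

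RNA polymerase II is the enzyme that transcribes protein-coding genes and many non-coding RNAs. It gathers at active promoters, often pauses a short way downstream, and is spread over the bodies of genes that are being transcribed, so a region can be a narrow promoter peak or a wide block over a gene. The Drosophila X is present once in males and as a pair in females, and in males the MSL (male-specific lethal) complex binds the single X and raises its transcription. The lists name no genes, so neither the tissue nor any region could be checked against marker genes. Heads hold many cell types from flies kept in population cages, and in such bulk chromatin a region occupied in few cells and a region weakly occupied in many cannot be told apart. The labels do not say whether the ChIP replicates came from separate fly collections, so the spread between them may be technical. Read depth is unknown, because the lists hold no read counts.

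X was covered by enriched regions over more of its length than any of the 3 comparison arms, in each of the 3 lists. Coverage came to 19.2% of X in replicate 1, 18.7% in replicate 2 and 23.4% in the replicate set list. On 2L, 3L and 3R it ran from 16.7% to 18.6% in replicate 1, from 16.5% to 18.5% in replicate 2 and from 19.3% to 21.6% in the replicate set list. X therefore stood just above 3R, the most covered of the 3 arms, in the replicates and further above it in the replicate set list. Averaged over the replicates, coverage was 18.9% ± 0.351 on X and 17.4% ± 0.0755 on the 3 arms pooled (SD, n = 2 libraries), a difference of 1.51 ± 0.276 percentage points. The number of regions per Mb separated X less clearly. It was 50.8 ± 0.41 on X and 48.6 ± 0.365 on the arms, and X lay inside their range in both replicates. The difference of 2.24 ± 0.0445 regions per Mb was 1.31 without 2L and 3.88 without 3R. An exact sign permutation test over 2 libraries, two-sided, cannot give a p below 0.5, and it gave 0.5 for coverage and density, and likewise for the median width, the median gap and the share in runs given later. All differences between X and the arms are therefore descriptions of these libraries.

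**Figure D1:**
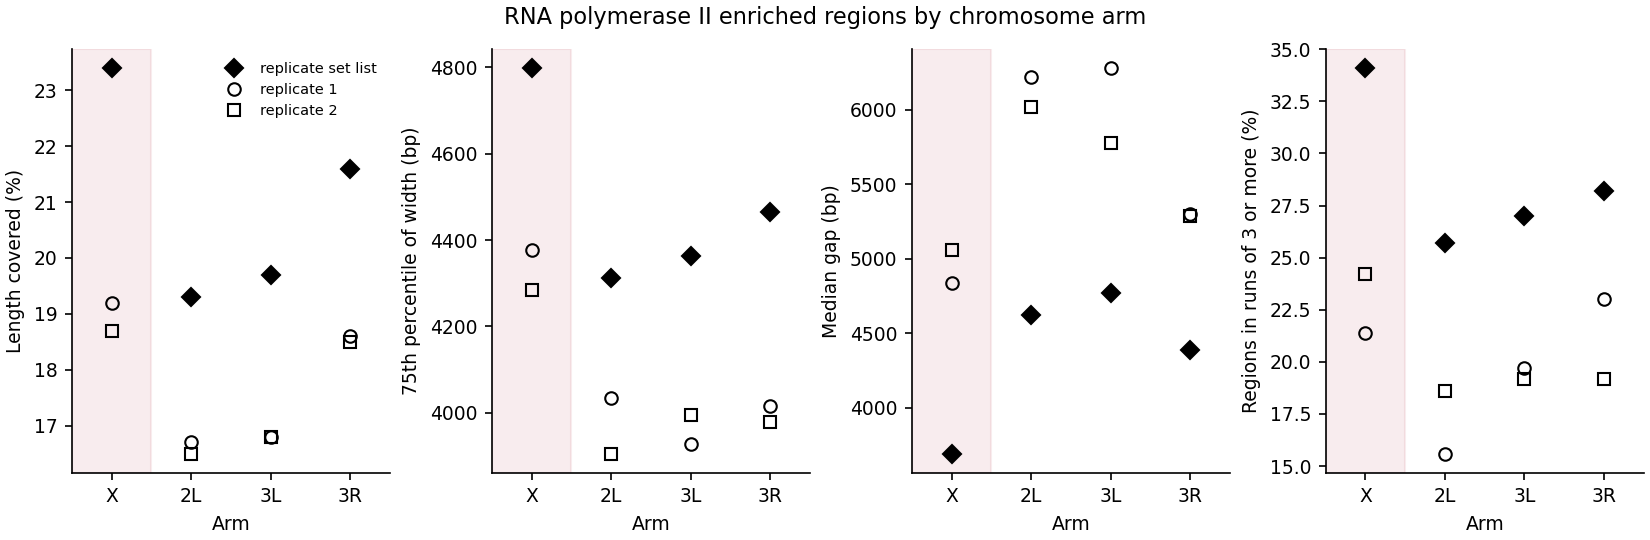
Values per chromosome arm in the replicate set list (diamonds) and in replicates 1 (circles) and 2 (squares): percent of arm length covered, 75th percentile of region width, median gap between neighbouring regions, and percent of regions in runs of at least 3. The vertical axes do not start at 0. X (shaded) is the most covered arm and has the shortest median gap in each list.

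In the replicate set list, X held larger shares of narrow and of wide regions than the arms. Widths on X had a median of 2672 bp in replicate 1 and of 2576 bp in replicate 2, against 2522 and 2488 bp on the pooled arms. The median difference of 119 ± 43.8 bp (SD, n = 2) was small beside the range of widths, which on X ran from 1001 to 40526 bp in the replicate set list. The wide side differed more. The 75th percentile averaged 4330.4 ± 64.5 bp on X and 3986.5 ± 27.6 bp on the arms, and X was above all 3 arms in each list. Regions of at least 5 kb made up 19.7% ± 0.531 of X regions and 16.9% ± 0.59 of those on the arms. Of the 1278 members, 216 measured 5 to 10 kb and 90 measured 10 kb or more (7.04%, against 5.06% on the arms), and these 90 held 25.9% of the covered X sequence against 20.0% on the arms. In the replicate lists, however, the share of regions of 10 kb or more was 4.24% and 3.4% on X, and 3.68% and 3.31% on the arms. At the other end, 329 members (25.7%) were narrower than 2 kb, against 21.1% on the arms. In the replicates that share was 18.4% and 17.1% on X, and 16.6% and 16.7% on the arms, with 3R above X in replicate 2 at 17.4%. Intermediate widths of 2 to 5 kb were held by 50.3% of members and by 58.1% of the regions on the arms.

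Among high-scoring regions, those on X were the wider ones. The authors gave each region a score that behaves as a log2 value with an offset that is not stated, and it was compared only within a list. All regions of a list, on every sequence, were ranked by score and split evenly into 5 classes. In the highest class, X regions had median widths of 3467 bp (replicate 1) and 3310 bp (replicate 2), against 2721 and 2728.5 bp on the pooled arms. In the class below it, the medians were 4001 and 4069 bp on X, against 3678 and 3532 bp. The differences averaged 663.8 ± 116.3 bp and 430.0 ± 151.3 bp (SD, n = 2), and X was above all 3 arms in each list in both classes. In the second lowest class the order was turned round, with a median of 2096.8 ± 30.8 bp on X and 2471.5 ± 21.9 bp on the arms. Wide regions followed the same order. In the highest class, 28.1% ± 0.351 of X regions and 18.7% ± 1.74 of those on the arms were at least 5 kb wide, while in the second lowest class the shares were 2.85% ± 0.765 and 7.91% ± 0.522. X filled the low classes differently from the arms. The lowest class held 11.3% ± 2.39 of X regions and 21.7% ± 0.666 of those on the arms. The second lowest held 24.3% ± 1.98 and 19.0% ± 0.355. Whether this filling set the turned order of widths was not tested. Width and score ranked alike over the members with Spearman's rho = 0.66, and with 0.59 on the arms, across regions that share their libraries.

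**Figure D2:**
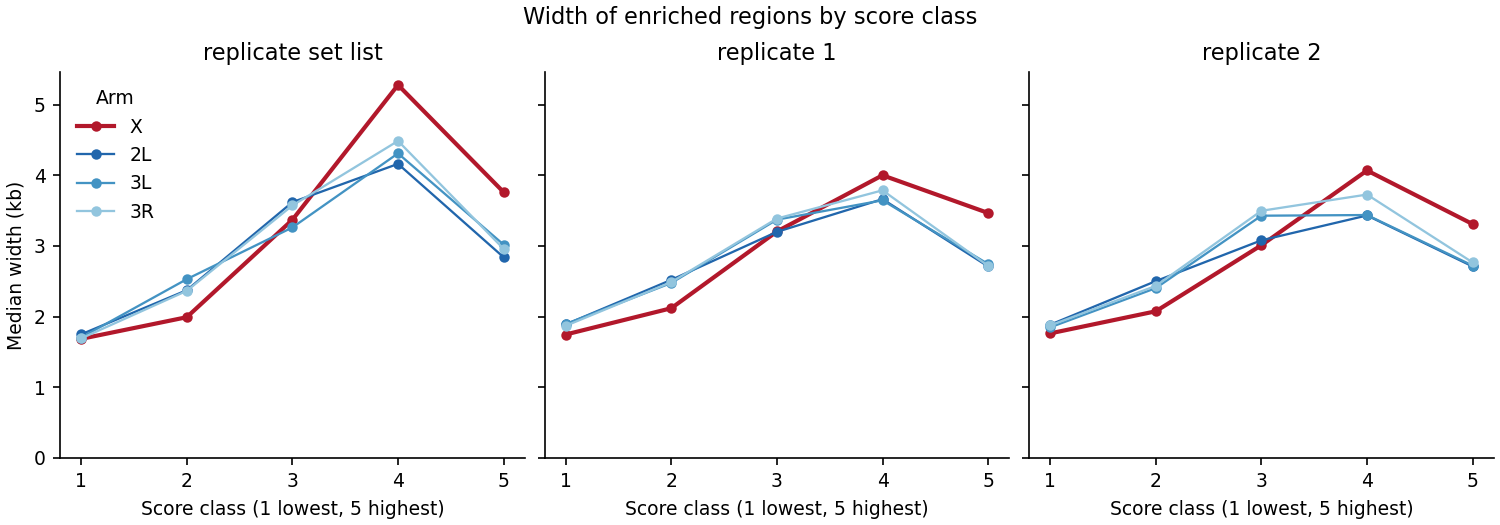
Median width in kb of the enriched regions on X, 2L, 3L and 3R in each of 5 score classes, from lowest (1) to highest (5), in the 3 lists. In classes 4 and 5 the X medians lie above those of the 3 arms in every list, and in class 2 they lie below them.

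Neighbouring regions lay closer together on X. Gaps between neighbours on X had a median of 4835 bp in replicate 1 and of 5055 bp in replicate 2, against 5805 and 5664 bp on the pooled arms. In the replicate set list it was 3692 bp on X and 4605 bp on the arms. The difference averaged -789.5 ± 255.3 bp (SD, n = 2), and X was below each of the 3 arms in every list. Longer gaps showed it as well, with a 75th percentile of 15836.5 ± 1241 bp on X and 19006.9 ± 565.9 bp on the arms. The shortest gaps did not separate X from 3R in replicate 1. Gaps of at most 1 kb made up 17.0% of X gaps, 15.8% of gaps on the pooled arms and 17.8% of those on 3R in replicate 1. In replicate 2 the shares were 19.2% on X, 16.1% on the pooled arms and 16.1% on 3R. Among the members, 170 of 1277 gaps were at most 500 bp (13.3%, against 13.1% on the arms and 13.4% on 3L) and 468 were at most 2 kb (36.6%, against 32.2% on the arms).

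**Figure D3:**
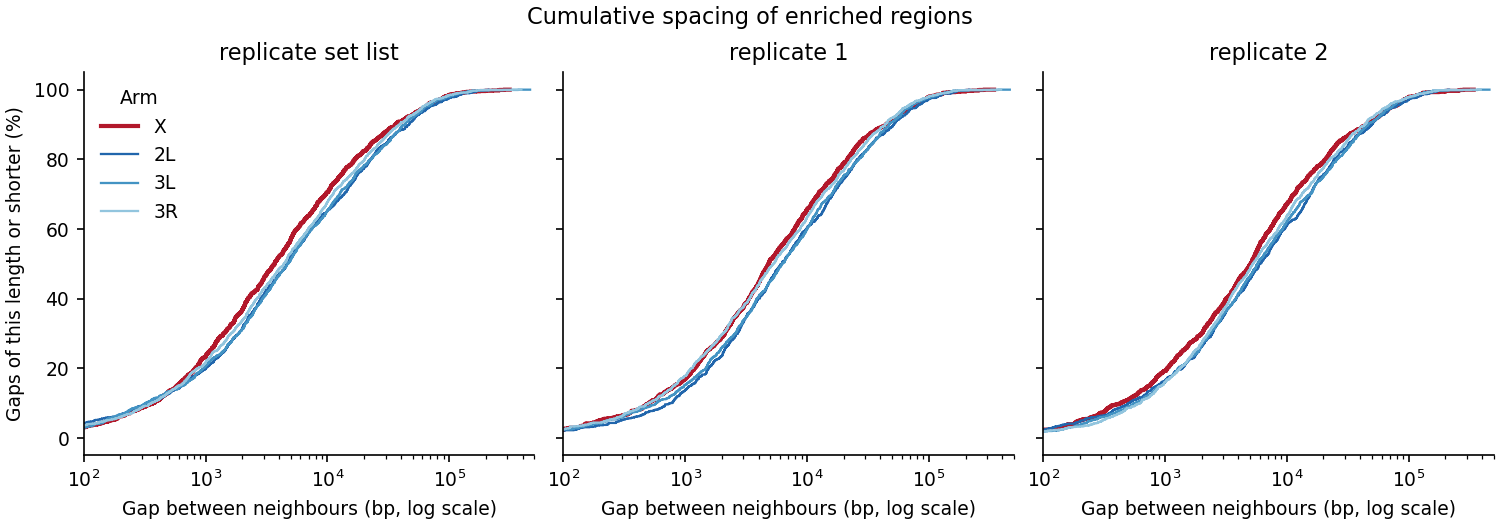
Cumulative percent of gaps between neighbouring enriched regions, by gap length in bp on a log axis that starts at 100 bp, for X, 2L, 3L and 3R in the 3 lists. Through the middle of the range the X curve lies above the others, with medians on X of 3692, 4835 and 5055 bp in the replicate set list, replicate 1 and replicate 2.

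Close regions on X formed runs, here defined as at least 3 regions in a row with no gap over 2 kb. The replicate set list held 112 such runs on X, with 436 members (34.1%), against 27.1% of the regions on the pooled arms and at most 28.2% on any of the 3. Among the regions of that list found in both replicates alone, the order was the opposite, with 14.2% in runs on X and 15.1% on the arms, and 97 of the 208 members found in neither replicate lay in runs (46.6%, against 38.5% on the arms). In replicate 1 the share was 21.4% on X and 19.8% on the arms, where 3R stood higher than X with 330 of its 1437 regions. In replicate 2 it was 24.2% on X and 19.1% on the arms, with none of the 3 above 19.2%. The mean difference of 3.40 ± 2.44 percentage points was thus 1.67 in replicate 1 and 5.12 in replicate 2, and it was -0.489 among the upper 25% of each list by score. Regions without a close neighbour made up 43.3% of members and 48.2% of the regions on the arms. The runs on X were 57 of 3 regions, 30 of 4 and 25 of at least 5, spanned a median of 17.6 kb and took up 10.0% of X in all.

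The runs stayed dense in the replicates, although not always with the same divisions. All 112 runs held at least 1 region of each replicate, and 70 held at least 3 regions in each. With at least 3 members per run and most members matched, the first count was nearly set in advance. Runs on the arms were not followed into the replicates, so these values have no comparison. Across runs, a median of 87.6% of the span was covered in the replicate set list, 68.5% by replicate 1 and 67.1% by replicate 2. In 24 runs every member overlapped a region of both replicates. No run on X exceeded 7 regions in the replicate set list, whereas the longest on 3L and 3R held 10. The replicates did not share this order. Their longest run on X held 8 regions in each, against 7 on the arms in replicate 1 and 8 in replicate 2. In the replicate set list, 8 runs on X had 7 regions, of which the 5 with the most covered sequence are given. The first, at X 15736999 to 15793192, spanned 56.194 kb and was covered over 93.4% in the replicate set list, 76.4% in replicate 1 and 86.0% in replicate 2, with 8 regions in each replicate. The run at X 11445415 to 11495169 spanned 49.755 kb, with 7 regions in each replicate and scores from 0.40 to 2.58. The run at X 6958901 to 7005241 (46.341 kb) mixed strong and weak members, with scores from 0.18 to 2.88, and 4 of its 7 members overlapped both replicates. The runs at X 11016967 to 11060190 (43.224 kb) and X 8968244 to 9006914 (38.671 kb) had 5 of 7 members in both replicates. The run at X 11016967 held 5 regions in each replicate, and the run at X 8968244 held 8 in replicate 1 and 7 in replicate 2.

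Along the arm, dense and sparse stretches alternated. In 22 full bins of 1 Mb the replicate set list held a median of 59 regions, and the replicates 54 and 52. The replicates differed by a median of 2 regions per bin and by at most 8. The densest bins were 8 to 9 Mb with 82 regions (60 in replicate 1 and 59 in replicate 2), 11 to 12 Mb with 81 (69 and 71), and, tied, 6 to 7 Mb (64 and 66) and 15 to 16 Mb (71 and 71) with 76 each. The most densely populated bin of the replicate set list was thus not the densest of either replicate. By covered length, 11 to 12 Mb (35.4%) and 15 to 16 Mb (35.2%) led, and 8 to 9 Mb had 26.2%. The sparsest bins were 4 to 5 Mb with 29 regions (31 and 36), 14 to 15 Mb with 35 (27 and 33) and 20 to 21 Mb with 37 (29 and 28). In the 4 to 5 Mb bin the replicate set list held fewer regions than either replicate, with a covered share of 17.6% against 15.4% and 15.9%. Between 20 and 21 Mb only 12.0% of the sequence was covered, the lowest of the 22 bins.

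**Figure D4:**
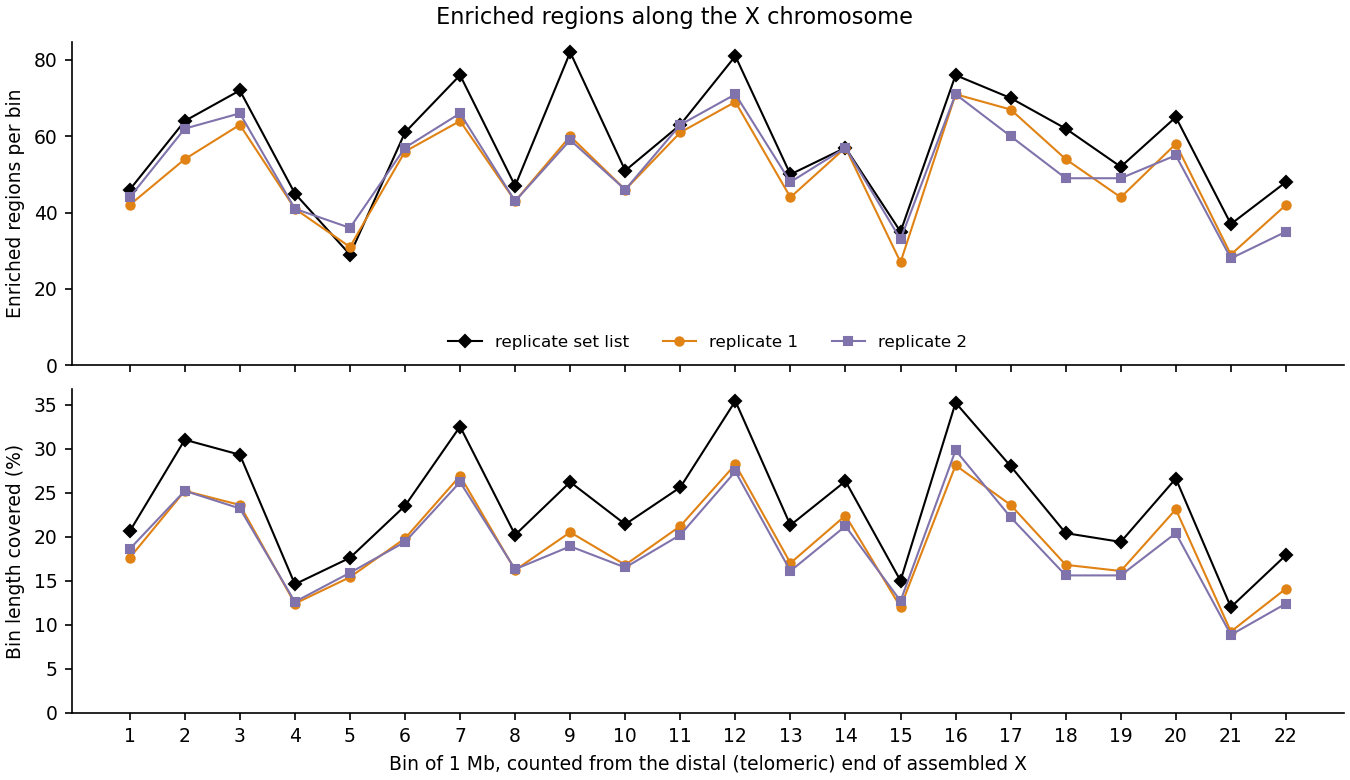
Enriched regions per 1 Mb bin (top) and percent of the bin covered (bottom) along the assembled X, from the distal end, in the replicate set list and both replicates. Bins 9 and 12 hold the most regions of the replicate set list (82 and 81), and bin 21 has the lowest covered share (12.0%).

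The centromeric end held fewer regions per Mb, as on 2L and 3L. In the last 2 Mb of assembled X, 71 members, or 35.5 per Mb, stood against 59.1 per Mb on the rest of X. The ratio of the stretch to the rest was 0.601 in replicate 1 and 0.485 in replicate 2 on X. It was 0.657 and 0.670 on 2L, 0.352 and 0.296 on 3L, and 1.17 and 1.11 on 3R. The likeness to 2L and 3L did not extend to the median gap in the replicates. In the stretch on X it was 4583.5 bp against 4847 bp on the rest in replicate 1, and 4629 against 5113 bp in replicate 2. On 2L it was 9028 against 6015 bp and 9225 against 5917 bp. On 3L it was 15703.5 against 6109 bp and 21345 against 5585 bp. In the replicate set list it was 3991 against 3676 bp on X. Regions in the last 2 Mb of X also scored lower than the rest of X, with medians of 0.88 against 1.14 in replicate 1 and 1.23 against 1.32 in replicate 2. The longest gap on X, 313.782 kb at 21502237 to 21816018, lay in this stretch. Next in length were 281.974 kb at 7219409 to 7501382, 256.651 kb at 12099144 to 12355794, 256.106 kb at 14217667 to 14473772 and 227.363 kb at 20566473 to 20793835, the last again within the final 2 Mb. None of the 21 gaps of at least 100 kb, which took up 15.3% of X, held the midpoint of a region of either replicate. This was nearly set in advance, since 99.7% of X regions in replicate 1 and 99.6% in replicate 2 overlapped a member.

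A smaller share of regions on X than on the other arms was found in both replicates. Both replicate lists held a partner, sharing at least 1 bp, for 918 of the 1278 members (71.8%, with a 95% exact binomial interval of 69.3 to 74.3). The share was 79.6% on the pooled arms and 78.1% over all sequences of the list, and it ranged from 79.2% on 3R to 80.4% on 2L. A further 83 members (6.49%) overlapped replicate 1 alone and 69 (5.40%) replicate 2 alone. The remaining 208 (16.3%, 14.3 to 18.4) overlapped neither, against 10.5% on the arms and at most 10.8% on any of them. Intervals cover the counting of regions only, and neighbouring regions are not independent. The unmatched members were small, with a median width of 1255 bp, and 112 of the 208 were narrower than any X region of either replicate. On the arms they were much alike, with a median of 1283 bp and 219 of 418 below that same width. By sequence, the 918 matched members held 88.5% of the covered length of X, against 91.3% for the matched regions of the arms. The density of matched regions was 40.9 per Mb on X and 42.1 on the arms, the opposite order from that of all regions of this list, 57.0 on X and 52.9 on the arms. Read from the replicates, the difference was smaller. In replicate 1, 90.7% of X regions overlapped a region of replicate 2, against 94.2% on the arms, and in replicate 2 the shares were 92.5% and 93.8%.

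Most members that overlapped neither replicate, 184 of 208, scored between 0.3 and 0.6, and on the arms 281 of 418 did. Members scoring from 0.3 to 0.6 numbered 408 (31.9%), of which 107 (26.2%) overlapped both replicates. On the arms 25.4% of regions fell in that band and 49.4% of them overlapped both. At 0.6 or more, 803 of 808 members matched both replicates, as did 2565 of 2577 regions on the arms. The unmatched regions of X scored higher than those of the arms. Their median was 0.43, against 0.34 on the arms, and those found in a single replicate had 0.41 and 0.42, against 0.33 and 0.31. The low end of each list showed the same shift. The 5th percentile of scores was 0.31 on X and 0.23 on the arms in the replicate set list, 0.43 and 0.34 in replicate 1, and 0.55 and 0.38 in replicate 2. At the median the order was the same and the difference smaller, with 0.94 against 0.93, 1.13 against 1.07 and 1.32 against 1.20. At the 90th percentile X was no higher, with 2.12 against 2.19, 2.17 against 2.20 and 2.45 against 2.46. Of the 208 unmatched members, 112 (53.8%) were within 2 kb of a matched member, against 47.6% on the arms. Close neighbours were common in general, as 43.3% of all members and 48.2% of all regions on the arms had none within 2 kb. The same distance was not computed for matched members, so whether the share is particular to unmatched ones is unknown.

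**Figure D5:**
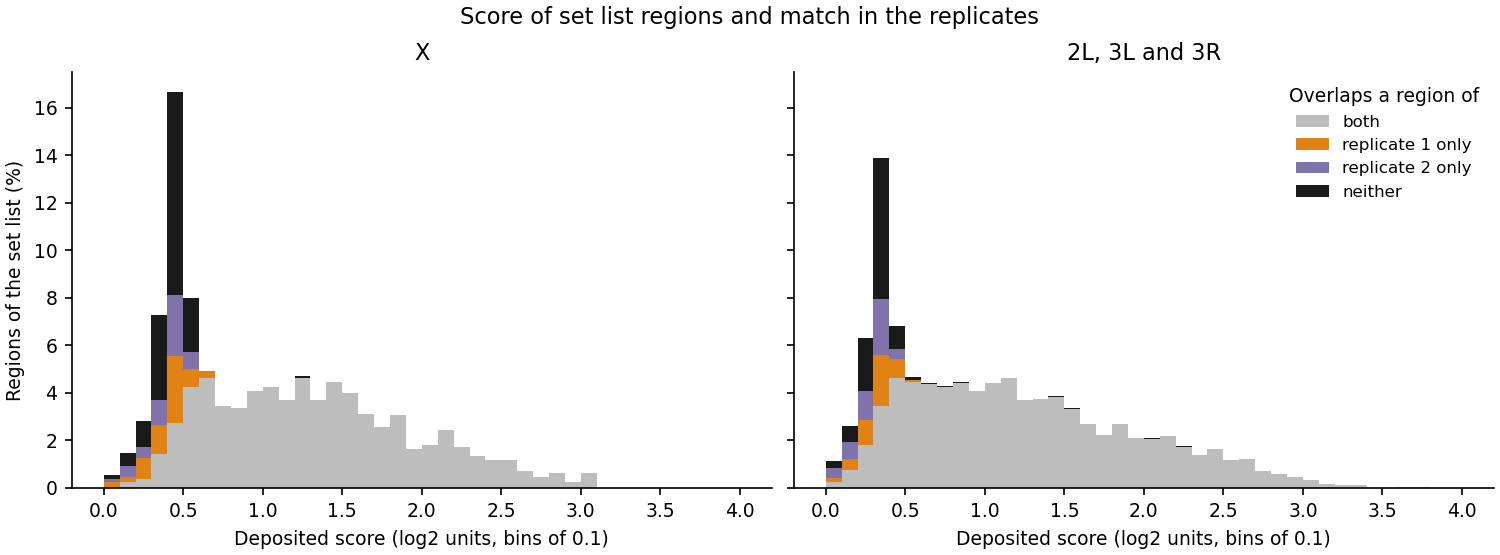
Percent of replicate set regions by deposited score in bins of 0.1, on X (left) and on 2L, 3L and 3R pooled (right), coloured by whether a region overlaps both replicates, a single replicate or neither. The unmatched regions pile up at a median score of 0.43 on X and 0.34 on the arms, and nearly all regions of 0.6 or more overlap both replicates.

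Where a member corresponded to exactly 1 region in each replicate, the borders were close. There were 752 such members, 81.9% of those matched in both, against 86.2% on the arms. The replicate borders of these regions differed by a median of 69 bp, and 73.1% differed by at most 200 bp. On the arms the median was 60 bp, with 78.2% within 200 bp. Another 154 matched members (16.8%, against 12.1% on the arms) were divided into several regions in at least 1 replicate, with up to 6 parts. The reverse was rare, as a single region of replicate 1 bridged 4 of the 170 X gaps of at most 500 bp (2.35%, against 4.79% on the arms), and one of replicate 2 bridged 9 (5.29%, against 5.94%).

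The 10 highest-scoring members and the 10 widest had 0 regions in common. With 10 of 1278 members in each set, this cannot show how width and score relate. Over all members width and score rose together, with Spearman's rho = 0.66. The 10 widest all scored 1.20 or more, above the X median of 0.94. The 10 highest were 2287 to 7620 bp wide, all overlapped both replicates with a single region in each, and 6 had no neighbour within 2 kb. For comparison, 803 of the 808 members scoring 0.6 or more matched both replicates, and 43.3% of all members had no neighbour within 2 kb. The highest, at X 15997829 to 16000115, scored 3.09 and ranked 24 in the whole list. Among X regions it ranked 3 in replicate 1 and 11 in replicate 2. The second, at X 5232632 to 5236259 (score 3.08), held rank 2 on X in replicate 1 and rank 1 in replicate 2. The regions at X 5793016 to 5800142 (score 3.05, ranks 9 and 3) and X 6167211 to 6174830 (score 3.04, ranks 6 and 14) were the widest of the 10. The regions at X 19241028 to 19243557 (score 3.04, ranks 7 and 6) and X 10211548 to 10214658 (score 3.03, ranks 8 and 19) followed. Those at X 10520683 to 10524820 (score 3.03) and X 12761542 to 12764671 (score 3.01) ranked higher in replicate 2, with 2 and 4, than in replicate 1, with 12 and 15. The last of the 10 were X 919294 to 921903 (score 2.97, ranks 11 and 5) and X 10439547 to 10441915 (score 2.97, ranks 5 and 38). X supplied 18 of the 100 highest-scoring regions of the whole list, close to its 18.9% of all regions.

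The 10 widest members covered 267.3 kb, 5.10% of the enriched sequence of X, with scores from 1.20 to 2.09. They were found in both replicates, as were all 90 members of 10 kb or more. Replicate 1 divided 7 of the 10 into several regions, and replicate 2 divided 9. No such count was made for the widest regions of the arms. The widest, 40.526 kb at X 2535107 to 2575632, was made of 4 regions in replicate 1 (36951 bp in all) and 5 in replicate 2 (34722 bp). The next, 35.834 kb at X 12542042 to 12577875, was divided into 2 and 6 regions. The members at X 392775 to 418388 (25.614 kb), X 6570020 to 6595300 (25.281 kb) and X 11570367 to 11595470 (25.104 kb) had 3, 1 and 4 parts in replicate 1, and 3, 3 and 4 in replicate 2. Replicate 2 held at least as many parts as replicate 1 in each of these 5. The remaining 5 measured between 21.260 kb, at X 4241312 to 4262571, and 24.653 kb, at X 6978204 to 7002856. The region at X 4241312 to 4262571 was the sole member of the 10 that each replicate held in a single piece, 20077 bp in replicate 1 and 21216 bp in replicate 2. It had no neighbour within 20 kb on either side. The other 3 were at X 1107938 to 1131712, X 18276908 to 18299699 and X 9039667 to 9062085, the last with the highest score of the 10.

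At the ends of the arm, the first member lay at X 22835 to 25095 (score 1.31) and the last at X 22412962 to 22416898 (score 1.81), and both replicates held a single region at each. Among the 208 members without a partner, 1 stood apart. It lay at X 21816019 to 21817019, directly after the longest gap of the arm, was 1001 bp wide, the smallest width in the list, and scored 1.27. The next highest of the unmatched members scored 0.58, at X 2178810 to 2179941 and X 7865653 to 7867037, followed by X 18440275 to 18441400 (0.57) and X 18396698 to 18397720 (0.55), and these 4 were 1023 to 1385 bp wide.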

How the data were processed

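The analysis used 3 deposited lists of RNA polymerase II regions in fly heads, for 2 ChIP replicates and the replicate set. Per the submitters' processing notes, reads were mapped with Bowtie 0.12.7. Per the file headers, coordinates refer to FlyBase release 5. For the region caller, its threshold, the use of input and the combining of replicates the sources say nothing (not given in the sources used here), and no list of the input libraries was used. The deposited score was treated as log2: with the most common score subtracted and base 2 raised to the rest, 22.9% of values in the replicate set list were whole-number ratios (denominators to 300, within a relative 1e-10), against 0.237% for base e and 0.266% for base 10.

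Widths, gaps, runs, 1 Mb bins by midpoint and overlaps of at least 1 bp were computed from the coordinates and the sequence lengths in the headers. X was compared with 2L, 3L and 3R over the 2 libraries by an exact sign permutation test, two-sided. The code was tested on 582 simulated regions and recovered 100% of runs and overlaps. Named regions followed a fixed rule: the 10 highest-scoring, the 10 widest, the first and last, the 5 highest-scoring without a partner, the 5 runs with most regions (ties by covered sequence), the 5 longest gaps, and the 3 densest and 3 sparsest bins. Members and measures were chosen with earlier results of these data known, and score classes and bands after their values were seen. The gene table at hand is of release 6, so no gene or sequence is given. Figures were drawn with matplotlib 3.10.9, and the rest was run in Python 3.11.15 with scipy 1.17.1, pandas 2.3.3 and numpy 2.4.6.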

Additional observations from a re-analysis of the deposited data

How the results depend on the processing

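The differences between X and the pooled arms in coverage, region density, median width and median gap over the replicate lists kept their direction under the alternatives tried: score limits, each replicate or comparison arm left out, the centromeric 2 Mb left out, close regions merged (not run for coverage), and regions matched in the other replicate alone, the last chosen after seeing the data. Against 3R alone, regions matched in the other replicate hardly separated X. Their coverage was 18.3% on X and 18.1% on 3R in replicate 1, and 18.0% on each in replicate 2. Their median gap was 6042 bp on X and 5787 bp on 3R in replicate 1, and 5659 and 5967 bp in replicate 2. In the replicate set list, density turned when regions matched in both replicates were counted alone, with 40.9 per Mb on X and 42.1 on the arms, and so did the share in runs, with 14.2% and 15.1%. With 2 libraries no test could pass a threshold, so this describes direction only. Sizes moved: the density difference ran from 0.913 per Mb, in regions matched in the other replicate, to 3.88 without 3R, the width difference ran from 88 bp in replicate 2 to 698.8 bp in the upper 25% by score, and the gap difference from -609 bp to -6078.0 bp in the upper 50%. The difference in regions in runs was -0.489 percentage points in the upper 25% by score, and the cause was not tested. The share of members matched in both replicates was 63.5% when at least 50% of the member had to overlap and 63.3% when 50% of both regions had to. With lists limited to their upper 50% by score it was 84.1%, with the upper 25% it was 78.4%, and with 1 replicate left out it was 77.2% to 78.3%. These shares were taken for X without values on the arms beside them. They therefore do not show whether the lower matched share of X held under these settings. No paired analysis was possible because only the ChIP samples have lists, so that ChIP and input of the same number could not be set against each other; X and the arms were compared within each ChIP library. Unknown depth limits what the lists say about weak regions.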

Other observations

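Members standing alone, with more than 20 kb to the next region on each side, numbered 85 (6.65% of members), against 7.72% of the regions on 2L, 3L and 3R. Their median score lay at percentile 66.8 of the whole list, and at 78.9 for those on the arms. Of the 85, 67 (78.8%) overlapped both replicates, against 89.9% on the arms. Counts in windows of 100 kb varied more on X. The variance over the mean was 2.28 in replicate 1 and 2.38 in replicate 2 on X, against 2.16 and 2.15 on the pooled arms, and X was above each of the 3 arms in all 3 lists. Empty windows were about as frequent, at 7.14% and 6.25% on X and 7.03% and 6.76% on the arms.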
